A study of Mus musculus with 24 samples.

Results

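The genes described here are 9 genes of tendon and cartilage: Tnmd (tenomodulin), Scx (scleraxis), Mkx (mohawk), Thbs4 (a thrombospondin), Comp (cartilage oligomeric matrix protein), Fmod (fibromodulin), Chad (chondroadherin), Acan (aggrecan) and Hapln1 (a link protein). They were chosen by name from the 24062 gene symbols of the deposited count tables, and all 9 had a row in both tables. Polyadenylated RNA of mouse quadriceps muscle, on the C57BL/6 background, was sequenced in 24 libraries that fall into 9 groups. The genotypes were wild type (WT), delEx44 and corrected delEx44, and the comparisons ask how the muscle of delEx44 mice differs from WT and how far gene editing moves it back. The delEx44 line, a model of Duchenne muscular dystrophy, carries a deletion of an exon of Dmd, the gene for dystrophin. For the corrected group, delEx44 mice received vectors of adeno-associated virus 9 (AAV9) with SpCas9 and with a single guide RNA into the abdominal cavity on postnatal day 4.

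Quadriceps was taken at 4 weeks from sedentary mice (3 libraries per genotype) and at 8 weeks from mice that had run downhill for 1 month (2 libraries per genotype). The run mice went down a slope of 15 degrees at 12 m/min on alternate days. A separate table holds sedentary mice of 18 months (3 libraries per genotype). For the 4-week and run groups the dose was 8e13 vector genomes per kg of each vector, and for the 18-month group it was 2.5e14 for the guide vector and 5e13 for the Cas9 vector. The guide vector was self-complementary in the young and single-stranded in the 18-month mice, so age, vector dose and table cannot be told apart in the corrected mice. The labels name no injection of WT or delEx44 mice. All run mice were 8 weeks old and all other young mice 4 weeks old and sedentary, so running and growth cannot be told apart either. The labels do not state that each library came from a different mouse, so the tests below measure the spread between libraries. In the 18-month table, the names of 2 WT columns show the genotype without fixing the sample, and they are called libraries a and b.

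Tendon joins muscle to bone, and its cells lay down a matrix of aligned collagen fibrils. Scleraxis and mohawk are transcription factors of the tendon lineage, tenomodulin is a membrane glycoprotein of mature tendon cells, and the secreted proteins thrombospondin 4, COMP, fibromodulin and chondroadherin bind collagen in tendon, cartilage or both. Cartilage holds its water through aggrecan, a large proteoglycan that is fastened to hyaluronan by link protein. The labels do not say whether tendon or fascia was removed from the muscle before RNA was extracted.

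In units of 1e6 counts, library depth was 30.6 to 38.1 for 4-week and run mice and 23.1 to 31.3 for 18-month mice. Levels are given as CPM, the counts per 1e6 counts of the library, scaled within each table. Dmd, counted over the whole gene and so also over exons outside the deletion, had 36.1 to 41.8 CPM in the 5 young delEx44 libraries, against 148 to 239.6 in the 5 young WT and 88.8 to 172 in the 5 young corrected libraries. At 18 months Dmd had 84.2 to 86.7 CPM in delEx44, 337 to 425 in WT and 195 to 304 in corrected libraries. The 8 muscle fibre markers summed to 87079 to 111537 CPM in delEx44 and 181303 to 204778 CPM in WT at 4 weeks, and to 57125 to 69700 and 120972 to 131526 CPM at 18 months. The 6 macrophage markers summed to 1194 to 1676 CPM in delEx44, 271 to 311 in WT and 416 to 548 in corrected libraries at 4 weeks. In the same order the macrophage sums were 828 to 881, 222 to 223 and 232 to 318 CPM after running and 806 to 884, 229 to 309 and 256 to 863 CPM at 18 months. The 6 markers of fibro-adipogenic cells, the connective tissue cells of muscle, summed to 762 to 803 CPM in delEx44 and 576 to 616 in WT at 4 weeks, and to 697 to 810 and 440 to 460 at 18 months. The 7 adipocyte markers summed to 1514 to 1837 CPM in delEx44, 674 to 761 in WT and 419 to 679 in corrected libraries at 18 months, while the groups overlapped at 4 weeks and after running. The 6 osteoclast markers summed to 71.5 to 103 CPM in delEx44, 19.4 to 21.6 in WT and 15.8 to 32.9 in corrected libraries at 18 months, and were also higher in delEx44 than in WT after running. The 6 Schwann cell markers were lower in delEx44 than in WT at every stage, at 77.8 to 96.7 against 130 to 212 CPM at 4 weeks. These marker sums move with the delEx44 genotype, as several of the 9 genes do, and their part in the results below was not tested. In a bulk sample, fewer cells of a type and less RNA per cell cannot be told apart.

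Replicate 3 of the 4-week WT group stood apart from the other 14 libraries of the first table, most of all in the cartilage genes. Hapln1 was at 17.8 CPM there and at 0.535 and 0.397 in WT replicates 1 and 2, which is 38.1 times their mean. Acan was at 12.8 against 1.17 and 1.44 CPM, which is 9.78 times the mean. The highest level of these genes in any of the other 14 libraries was 2.23 CPM for Hapln1 and 2.04 CPM for Acan. Chad was 2.35 times and Comp 2.12 times the mean of the other WT replicates, while Scx, Fmod, Thbs4, Mkx and Tnmd lay between 1.29 and 1.47 times. The library ranked first of 15 for 7 of the 9 genes, second for Scx and sixth for Thbs4.

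That library also carried transcripts of bone, cartilage and marrow. The 7 chondrocyte markers, which include Acan and Hapln1, summed to 225 CPM, against 6.99 to 12.7 CPM in the 8 other 4-week libraries. Matn1, another of the 7, was at 0 in all 6 run libraries. In WT replicate 3 Col2a1, the collagen of cartilage, made up 181 CPM of the sum and was at most 28.0 CPM in any other library. The 9 osteoblast markers summed to 119 CPM against 16.5 to 25.2, the 10 neutrophil and marrow markers to 257 against 0.472 to 27.8, and the 9 erythroid markers to 62.6 against 4.35 to 9.69 in those 8 libraries. Of the erythroid markers, the 4 haemoglobin genes were listed at 0 in every library. The 6 run libraries held marrow transcripts too: their neutrophil and marrow sums were 66.4 to 219 CPM, their osteoblast sums 20.0 to 51.9 CPM and their chondrocyte sums 8.10 to 34.0 CPM. The called differences of the 9 genes that use the 4-week WT group are therefore given with and without replicate 3.

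**Figure D1:**
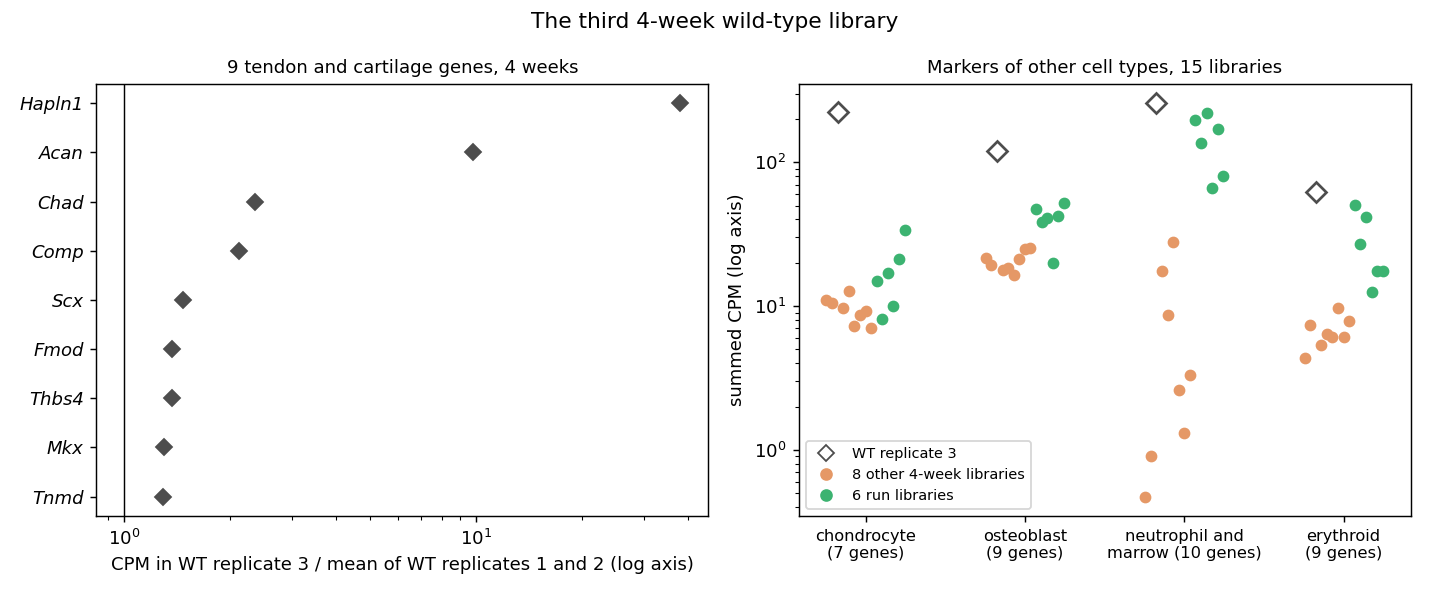
Left, level of each of the 9 genes in replicate 3 of the 4-week WT group divided by the mean of WT replicates 1 and 2 (log axis); Hapln1 (38.1 times) and Acan (9.78 times) lie far to the right of the other 7. Right, summed CPM (log axis) of 4 marker lists in the 15 libraries of the first table, 1 point per library; the open diamond is WT replicate 3, which has the highest sum in all 4 lists, and the run libraries lie above the other 4-week libraries in the neutrophil and erythroid lists.

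Per kilobase of exon, Thbs4 and Fmod were the most abundant of the 9 genes in every group. In 4-week WT, Fmod had a mean of 128 ± 30.6 CPM per kb (SD, n = 3) and Thbs4 124 ± 24.0, which do not differ beyond their spread, and Tnmd followed with 93.9 ± 15.0. Chad (27.8 ± 15.2), Comp (17.3 ± 8.38), Scx (5.14 ± 1.21) and Mkx (1.76 ± 0.312 CPM per kb) came next, and the spreads of Chad and Comp overlapped. Acan and Hapln1 closed the order, at 0.175 ± 0.0264 and 0.0790 ± 0.0166 CPM per kb in the 2 WT libraries without replicate 3. In delEx44 at 4 weeks Thbs4 stood alone at the top with 234 ± 17.5 CPM per kb, against 91.9 ± 11.7 for Fmod.

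**Figure D2:**
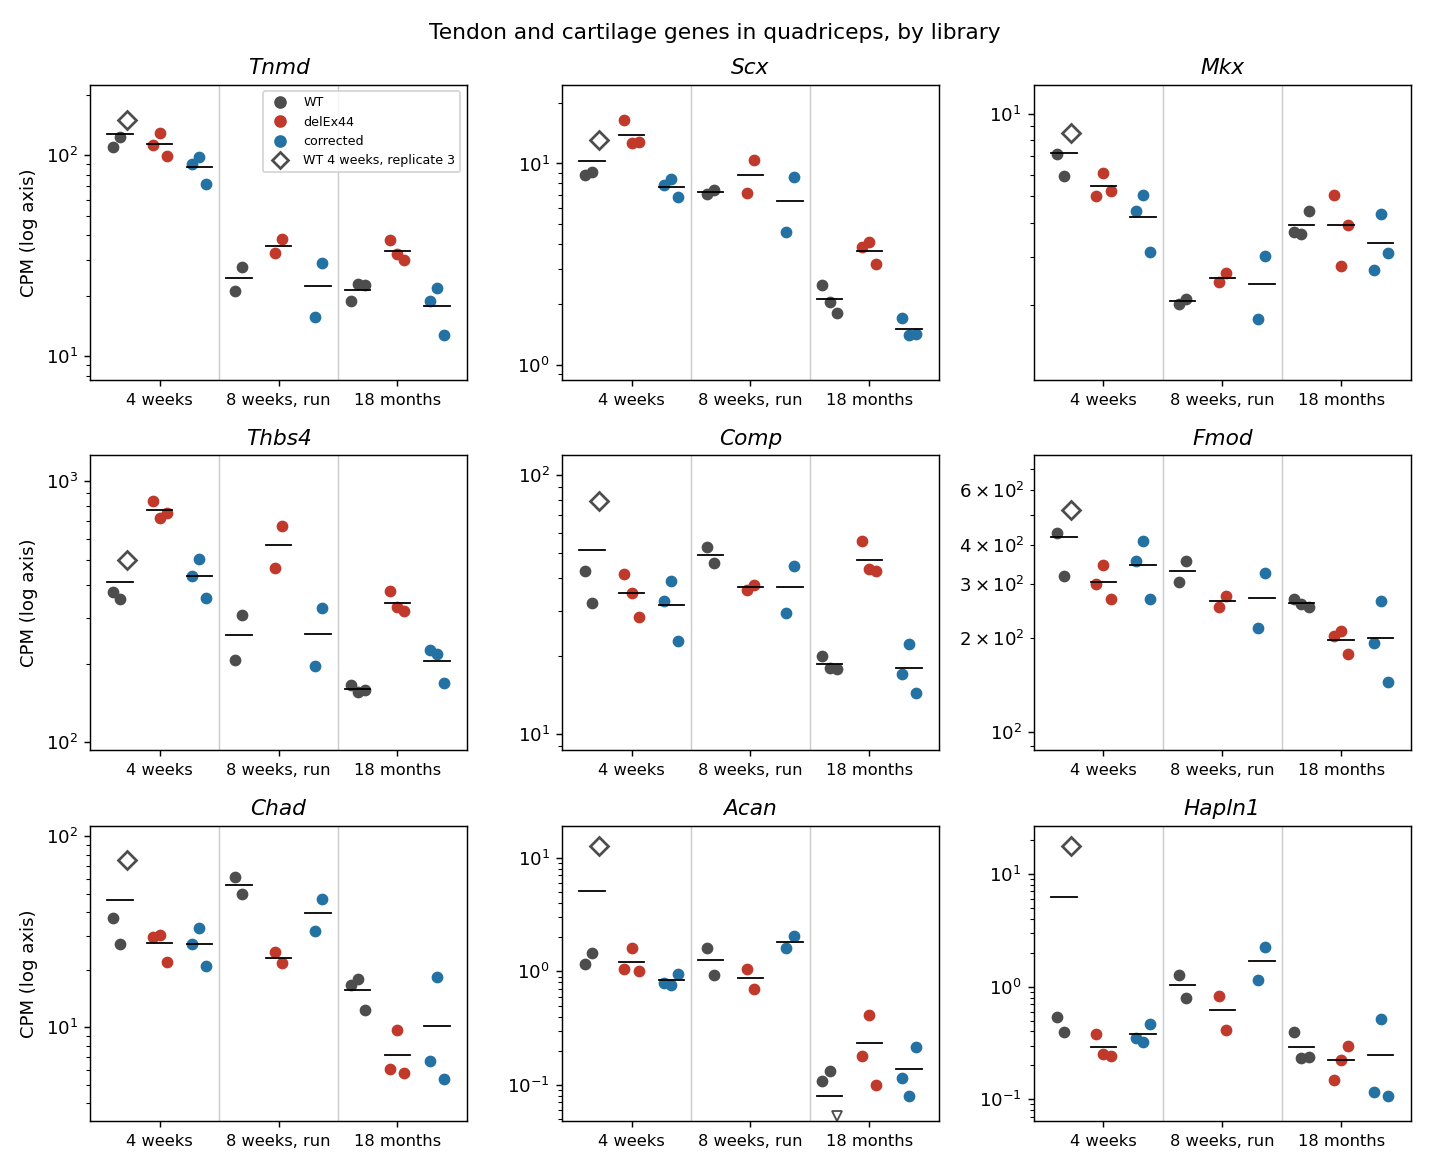
CPM (log axis, own range in each panel) of the 9 genes in 24 libraries, by genotype (colour) and stage; each point is a library, the bar is the group mean, the open diamond is replicate 3 of the 4-week WT group and the open triangle an Acan count of 0. Thbs4 lies higher in delEx44 at every stage, Tnmd and Mkx lie lower in the run groups, Comp lies higher in delEx44 at 18 months, and the open diamond is far above the rest for Acan and Hapln1.

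Differences between groups were tested gene by gene with edgeR's quasi-likelihood test, and a gene is called where its p-value, adjusted by the Benjamini-Hochberg method over all genes tested, is under 0.05. Between delEx44 and WT at 4 weeks, 3 of the 9 genes were called, Thbs4 higher and Acan and Hapln1 lower, where 50.2% of all 15013 genes tested were called. Without WT replicate 3, Thbs4 and Scx were called, both higher, and Acan and Hapln1 were not, against 48.5% of all genes. After running, Thbs4 was called higher and Chad lower in delEx44, 2 of 9 genes, against 29.1% of all genes. At 18 months 7 of the 9 genes passed the filter on low counts, Acan and Hapln1 being left out, and 4 of these 7 were called, all higher in delEx44: Tnmd, Scx, Thbs4 and Comp. The share over all 14337 genes tested at 18 months was 52.7%. DESeq2 called 6 of the 7 at this age, adding Chad and Fmod as lower, and limma-voom called 5, adding Chad. None of these shares stands far above that of all genes, so the genes are described one by one and nothing is read from their number.

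Between corrected and delEx44 mice, 2 of 9 genes were called at 4 weeks, Scx and Thbs4, both lower in corrected muscle, against 46.3% of all genes. After running, 1 of 9 was called, Thbs4, again lower in corrected muscle, against 23.2%. At 18 months the same 4 genes that were higher in delEx44 than in WT (Tnmd, Scx, Thbs4 and Comp) were lower in corrected than in delEx44 muscle, 4 of the 7 tested against 41% of all genes. The delEx44 libraries are shared by these comparisons. Between corrected and WT muscle edgeR called 0 of 9 genes at 4 weeks (0% of all genes, with or without WT replicate 3), 0 of 9 after running (0.02%) and 0 of 7 at 18 months (4.76%). At an unadjusted p under 0.05, 5 genes passed at 4 weeks, 0 after running and 2 at 18 months. Over all genes, 1497 and 1455 of 15013 and 3537 of 14337 passed at these stages. The 5 genes were Tnmd, Mkx, Chad, Acan and Hapln1. Without WT replicate 3, Acan went from -2.63 to -0.65, Hapln1 from -4.05 to -0.32 and Chad from -0.78 to -0.25. Tnmd went from -0.54 to -0.41 and Mkx from -0.77 to -0.64. DESeq2 called 1 gene at 4 weeks, Mkx, 0 after running and 1 at 18 months, Thbs4, and limma-voom called 0 in each.

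**Figure D3:**
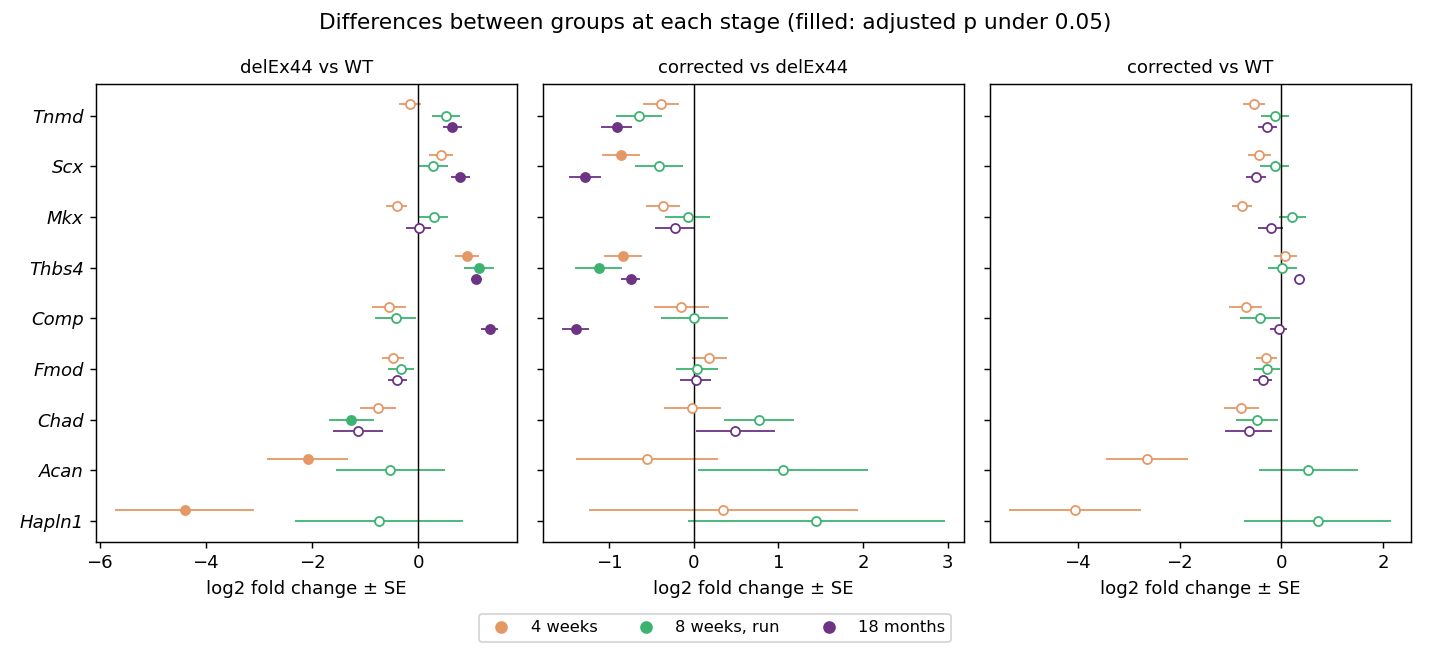
Log2 fold change ± SE from edgeR of the 9 genes in 3 comparisons (panels, each with its own range) at 3 stages (colours), with filled points for genes called at an adjusted p under 0.05; Acan and Hapln1 were not tested at 18 months. Thbs4 lies right of 0 in delEx44 against WT and left of 0 in corrected against delEx44 at all 3 stages, and the Comp point at 18 months lies apart from its points at 4 weeks and after running.

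Thbs4 codes for thrombospondin 4, a secreted pentameric protein of tendon and muscle matrix, and was higher in delEx44 than in WT libraries at each stage. At 4 weeks its level was 375, 353 and 499 CPM in WT replicates 1 to 3, at 834, 721 and 756 in delEx44 and at 434, 503 and 357 in corrected libraries. Every delEx44 library was above every WT and corrected library, and the WT and corrected libraries overlapped. The log2 difference between delEx44 and WT was 0.91 ± 0.23 (SE; edgeR adjusted p = 0.00601) and 1.08 ± 0.25 without WT replicate 3 (adjusted p = 0.00485). Between corrected and delEx44 it was -0.84 ± 0.23 (edgeR adjusted p = 0.0108). Between corrected and WT it was 0.08 ± 0.23, or 0.24 ± 0.24 without WT replicate 3, not called.

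After running, Thbs4 was at 207 and 307 CPM in WT, at 463 and 675 in delEx44 and at 195 and 326 in corrected libraries, so that delEx44 again lay above both other groups. The difference was 1.15 ± 0.28 against WT (edgeR adjusted p = 0.0109) and -1.13 ± 0.28 for corrected against delEx44 (adjusted p = 0.0148). Neither difference was called by edgeR on the libraries of the compared groups alone. Both calls were lost when a run library was left out: the first without WT replicate 1 (0.89, adjusted p = 0.084) or delEx44 replicate 2 (0.85, adjusted p = 0.0843), the second without delEx44 replicate 2 (-0.83, adjusted p = 0.113) or corrected replicate 1 (-0.80, adjusted p = 0.132). At 18 months the level was 166, 155 and 158 CPM in WT libraries a, b and 3, at 381, 329 and 317 in delEx44 and at 226, 218 and 169 in corrected libraries. The 3 groups did not overlap: WT was lowest, corrected next and delEx44 highest. The difference was 1.10 ± 0.11 for delEx44 against WT (edgeR adjusted p = 4.43e-05) and -0.75 ± 0.11 for corrected against delEx44 (adjusted p = 0.000561), and that between corrected and WT, 0.35 ± 0.11, was not called (adjusted p = 0.0884).

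The Thbs4 gene lies at chr13:92751590-92794818 on the minus strand of GRCm38. The promoter windows used here are the 250 bases before a RefSeq start and cover 6 of the 9 genes, without Scx, Mkx and Comp. The RefSeq start is not always the start of the gene bounds given here. The Hapln1 window (chr13:89540386-89540635) lies inside the bounds of its gene, and the Tnmd window ends at chrX:133851007, past the lower bound. The Acan window ends at chr7:79053225, while its gene begins at 79053483. Scleraxis belongs to the basic helix-loop-helix proteins, which bind the E-box, CANNTG, so these windows were searched for it (the motif reads the same on both strands). Thbs4, Fmod, Chad and Acan held 1 match each and Tnmd and Hapln1 held 0, where 66.2% of all 32851 promoters of that length held at least 1. The windows of Thbs4, the gene that differed between WT and delEx44 at every stage, and of Chad and Fmod, the leucine-rich repeat proteins among the 9, are shown 5′ to 3′ with the E-box in capitals (RefSeq, GRCm38.p6). They are chr13:92794819-92795068 on the minus strand, chr11:94564797-94565046 on the plus strand and chr1:134037004-134037253 on the plus strand. The first base of the E-box lies 115, 49 and 189 bases before the start, and a match is a description of these letters, not a site.
Thbs4: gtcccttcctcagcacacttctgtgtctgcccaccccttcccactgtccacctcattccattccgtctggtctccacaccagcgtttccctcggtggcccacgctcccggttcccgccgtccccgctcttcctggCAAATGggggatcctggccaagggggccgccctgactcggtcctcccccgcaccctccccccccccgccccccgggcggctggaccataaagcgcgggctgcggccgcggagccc
Chad: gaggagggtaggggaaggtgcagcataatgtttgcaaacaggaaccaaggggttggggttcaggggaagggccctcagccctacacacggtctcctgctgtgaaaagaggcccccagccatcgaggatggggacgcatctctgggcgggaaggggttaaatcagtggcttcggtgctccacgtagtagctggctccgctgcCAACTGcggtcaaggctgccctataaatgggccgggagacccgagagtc
Fmod: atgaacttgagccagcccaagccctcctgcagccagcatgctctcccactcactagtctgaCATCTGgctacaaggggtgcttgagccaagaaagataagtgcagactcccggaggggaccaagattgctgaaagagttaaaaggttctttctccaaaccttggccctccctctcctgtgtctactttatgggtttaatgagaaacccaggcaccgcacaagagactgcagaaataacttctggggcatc

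Comp codes for COMP, a pentameric member of the thrombospondin family that is abundant in tendon and cartilage, at chr8:70373558-70382066. Its level at 4 weeks was 42.7, 32.1 and 79.5 CPM in WT, at 41.6, 35.2 and 28.4 in delEx44 and at 32.8, 39.3 and 23.0 in corrected libraries, and the groups overlapped. After running it was 53.0 and 45.9 CPM in WT, at 36.0 and 37.7 in delEx44 and at 29.4 and 44.7 in corrected libraries. No difference in Comp was called at either of these stages. At 18 months the level was 20.0, 18.0 and 17.9 CPM in WT, at 55.8, 43.4 and 42.7 in delEx44 and at 17.1, 22.4 and 14.4 in corrected libraries. All 3 delEx44 libraries were above all WT and corrected libraries, by 1.34 ± 0.16 on the log2 scale against WT (edgeR adjusted p = 0.00015) and by 1.40 against corrected muscle (corrected minus delEx44 -1.40 ± 0.16, adjusted p = 0.000197). The corrected and WT libraries differed by -0.05 ± 0.16, not called.

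The difference between delEx44 and WT in Comp changed with stage. It was -0.55 ± 0.32 at 4 weeks and 1.34 ± 0.16 at 18 months, and the interaction, fitted over the 18 sedentary libraries, was 1.88 ± 0.41 (edgeR adjusted p = 0.0108). Without WT replicate 3 the difference at 4 weeks was -0.09 ± 0.25 and the interaction 1.42 ± 0.31 (edgeR adjusted p = 0.0122). Comp was the only one of the 9 genes that edgeR called in this interaction, against 10.9% of all genes tested; DESeq2 called 3, adding Tnmd and Acan. For Tnmd it was 0.78 ± 0.25 (adjusted p = 0.0637; 0.64 ± 0.26 and 0.138 without WT replicate 3). For Acan it was 3.42 ± 1.60 with edgeR (adjusted p = 0.198) and 1.44 ± 0.77 without WT replicate 3 (adjusted p = 0.275). Acan did not pass the filter on low counts among the 18-month libraries alone, so its value is limited by depth. For Thbs4 it was 0.16 ± 0.20, or -0.0037 ± 0.18 without that library, not called. In the matching interaction of corrected against delEx44, edgeR called 0 of the 9 genes where 15.9% of all genes were called. Only Comp, 1 of the 9, had an unadjusted p under 0.05 (-1.22 ± 0.41, edgeR adjusted p = 0.0618), against 4581 of all 14937 genes. DESeq2 called 1 of the 9 genes and limma-voom 0. A shift that the whole 18-month table shares cancels in such an interaction, while the change of vector dose does not.

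Scx codes for scleraxis, the transcription factor that marks tendon progenitors and tendon cells, at chr15:76457452-76459458. At 4 weeks it was at 8.75, 9.06 and 13.1 CPM in WT, at 16.4, 12.6 and 12.8 in delEx44 and at 7.78, 8.36 and 6.83 in corrected libraries. The delEx44 libraries lay above all corrected libraries and above WT replicates 1 and 2. Corrected minus delEx44 was -0.86 ± 0.23 (edgeR adjusted p = 0.00795). The difference between delEx44 and WT, 0.43 ± 0.22, was not called, but it was 0.64 ± 0.23 and called without WT replicate 3 (adjusted p = 0.0353). After running the levels were 7.03 and 7.34 CPM in WT, at 7.11 and 10.4 in delEx44 and at 4.57 and 8.52 in corrected libraries, which overlapped.

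At 18 months Scx was at 2.50, 2.06 and 1.80 CPM in WT, at 3.83, 4.06 and 3.16 in delEx44 and at 1.70, 1.40 and 1.43 in corrected libraries. These values rest on 35 to 128 counts per library. The delEx44 libraries lay above both other groups, and the corrected libraries below all WT libraries. The differences were 0.79 ± 0.18 for delEx44 against WT (edgeR adjusted p = 0.00449), -1.29 ± 0.19 for corrected against delEx44 (adjusted p = 0.000516) and -0.49 ± 0.19, not called, for corrected against WT. Scx overlaps Bop1 on the opposite strand, and the strand setting of the counting is not given in the sources used here, so reads of the overlap cannot be told apart.

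Tnmd codes for tenomodulin, which tendon cells carry in their membrane, at chrX:133850980-133865577. At 4 weeks it was at 109, 123 and 149 CPM in WT, at 113, 129.8 and 99.0 in delEx44 and at 90.9, 98.4 and 71.9 in corrected libraries, and no difference was called. After running it was at 21.1 and 27.9 CPM in WT, at 32.5 and 38.1 in delEx44 and at 15.7 and 29.3 in corrected libraries. The 2 delEx44 run libraries were the highest, but this difference was not called either (0.53 ± 0.27 against WT). At 18 months the levels were 18.9, 22.8 and 22.7 CPM in WT, at 38.0, 32.1 and 30.2 in delEx44 and at 18.9, 21.8 and 12.7 in corrected libraries.

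Here the 3 delEx44 libraries lay above all others, with differences of 0.64 ± 0.18 against WT (edgeR adjusted p = 0.0143) and -0.91 ± 0.18 for corrected against delEx44 (adjusted p = 0.00353). The call against WT was lost without WT library a (0.55, adjusted p = 0.0582) or delEx44 replicate 1 (0.54, adjusted p = 0.0572).

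Mkx codes for mohawk, a homeobox transcription factor of tendon, and was not called between genotypes at any stage by edgeR. At 4 weeks it was at 7.15, 5.96 and 8.51 CPM in WT, at 5.00, 6.08 and 5.25 in delEx44 and at 4.43, 5.07 and 3.13 in corrected libraries. The corrected libraries were all below the WT libraries (-0.77 ± 0.20, edgeR adjusted p = 0.188, and -0.64 ± 0.22 without WT replicate 3, adjusted p = 0.37). After running it was at 2.02 and 2.12 CPM in WT, at 2.42 and 2.63 in delEx44 and at 1.78 and 3.02 in corrected libraries. At 18 months it was at 3.69, 3.65 and 4.40 CPM in WT, at 5.06, 2.78 and 3.92 in delEx44 and at 2.70, 4.32 and 3.10 in corrected libraries. The groups overlapped at 18 months, and the log2 difference between delEx44 and WT was 0.01 ± 0.23.

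Tnmd and Mkx were the genes called by edgeR between the 4-week and run libraries, and they were lower in the run libraries of all 3 genotypes. Every run library was below every 4-week library of its genotype for both genes. For Tnmd the log2 differences were -2.37 ± 0.27 in WT (edgeR adjusted p = 0.000153), -1.69 ± 0.26 in delEx44 (adjusted p = 0.000651) and -1.95 ± 0.26 in corrected libraries (adjusted p = 0.000587). For Mkx they were -1.80 ± 0.25 in WT (edgeR adjusted p = 0.00028), -1.11 ± 0.24 in delEx44 (adjusted p = 0.00328) and -0.81 ± 0.24 in corrected libraries (adjusted p = 0.0257). The Mkx call in corrected mice was lost without corrected 4-week replicate 1 (-0.77, adjusted p = 0.0669) or 2 (-0.66, adjusted p = 0.0904) or run replicate 1 (-0.48, adjusted p = 0.276). Without WT 4-week replicate 3 the WT differences were -2.24 ± 0.27 for Tnmd (adjusted p = 0.000554) and -1.66 ± 0.25 for Mkx (adjusted p = 0.000926).

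These 2 of 9 genes were the called ones in each genotype, against 27.6% of all genes in WT (24.3% without replicate 3), 35.7% in delEx44 and 25.8% in corrected muscle. The other 7 genes were not called by edgeR in any genotype, but DESeq2 called 3 genes in each, and limma-voom 3 in delEx44 and in corrected muscle. The added gene was Scx in delEx44 (adjusted p = 0.0305 with DESeq2 and 0.0295 with limma-voom) and Thbs4 in corrected muscle (0.0119 and 0.0467). In WT it was Thbs4 with DESeq2 (adjusted p = 0.0197). Scx differed by -0.52 ± 0.26, -0.67 ± 0.25 and -0.22 ± 0.26 in WT, delEx44 and corrected muscle, and Thbs4 by -0.67 ± 0.26, -0.44 ± 0.26 and -0.73 ± 0.26. Without WT replicate 3 the WT values were -0.31 ± 0.25 for Scx and -0.50 ± 0.27 for Thbs4. Comp differed by -0.06 ± 0.36 in WT, or by 0.40 ± 0.27 without replicate 3, and by 0.07 ± 0.36 and 0.22 ± 0.36 in delEx44 and corrected muscle. Chad differed by 0.25 ± 0.37 in WT with replicate 3 and by 0.78 ± 0.26 without it (adjusted p = 0.0509). The interactions tested whether the step from 4 weeks to the run groups differed between genotypes, and edgeR called 0 of the 9 genes in either: 0.879% of all genes were called for delEx44 against WT and 1.42% for corrected against delEx44. At an unadjusted p under 0.05, 0 of the 9 genes passed in each, where 2642 and 2763 of all 15013 genes did. DESeq2 and limma-voom called 0 of the 9 as well. For Tnmd the interaction of delEx44 against WT was 0.68 ± 0.34 and for Mkx 0.70 ± 0.33, or 0.55 ± 0.35 and 0.56 ± 0.34 without WT replicate 3.

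**Figure D4:**
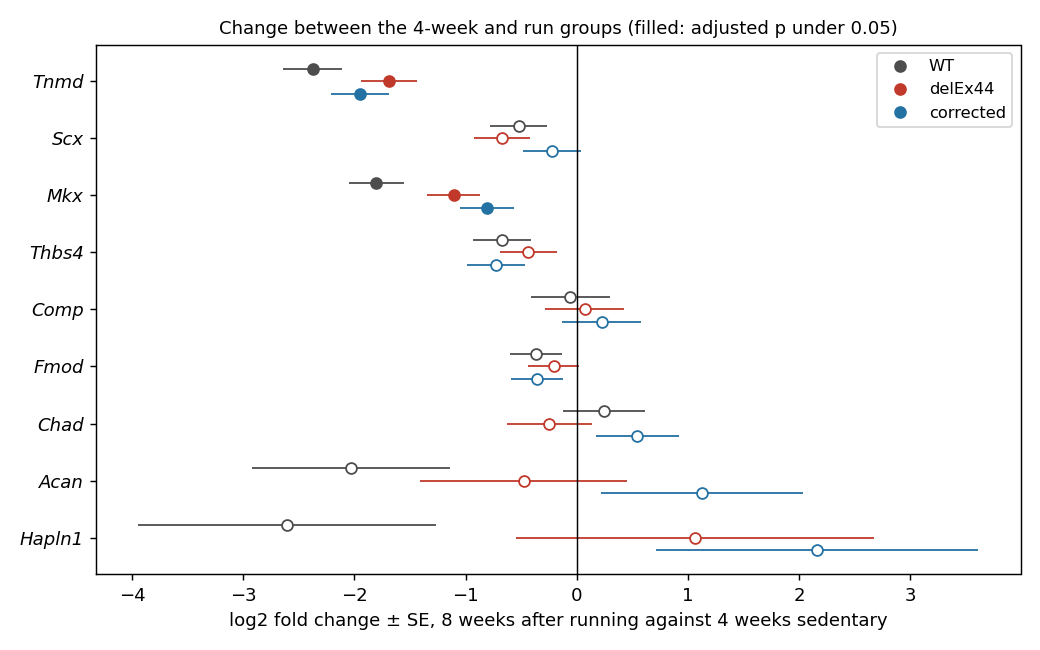
Log2 fold change ± SE from edgeR between the 8-week run and the 4-week sedentary libraries of each genotype (colours) for the 9 genes; filled points have an adjusted p under 0.05. Tnmd and Mkx are filled and left of 0 in all 3 genotypes, and the other 7 genes are open.

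Fmod codes for fibromodulin and Chad for chondroadherin, both leucine-rich repeat proteins that bind collagen; fibromodulin shapes the collagen fibrils of tendon. Fmod, at chr1:134037254-134048277, was also a member of the small leucine-rich proteoglycans and had a narrow range: 317 to 517 CPM in 4-week WT, 268 to 345 in delEx44 and 268 to 412 in corrected libraries. At 18 months it was at 267, 257 and 252 CPM in WT, at 203, 211 and 178 in delEx44 and at 192, 264 and 145 in corrected libraries. The delEx44 libraries were below all WT libraries, a log2 difference of -0.39 ± 0.18, and were not called by edgeR (adjusted p = 0.103) or limma-voom (0.106), but were with DESeq2 (adjusted p = 0.0298) and with edgeR on the compared groups alone (adjusted p = 0.000415). At 4 weeks the difference was -0.48 ± 0.21, not called by edgeR (adjusted p = 0.0707) but called by DESeq2 (adjusted p = 0.0303). Without WT replicate 3 it was -0.31 ± 0.21 (edgeR adjusted p = 0.25). After running the delEx44 libraries were at 252 and 274 CPM against 304 and 354 in WT, a difference of -0.32 ± 0.25, not called.

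Chad, at chr11:94565047-94569127, was lower in delEx44 than in WT libraries after running, at 24.8 and 21.6 against 61.1 and 49.8 CPM. The corrected run libraries, at 32.1 and 47.1 CPM, lay between the other groups. The difference from WT was -1.26 ± 0.42 (edgeR adjusted p = 0.046), and leaving out any of the 4 libraries compared ended the call (adjusted p from 0.0969 to 0.181). At 4 weeks Chad was at 37.3, 27.1 and 75.6 CPM in WT, at 29.9, 30.6 and 22.1 in delEx44 and at 27.3, 33.2 and 21.0 in corrected libraries, which overlapped.

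At 18 months Chad was at 16.7, 18.0 and 12.3 CPM in WT and 6.08, 9.65 and 5.79 in delEx44, groups that did not overlap (-1.13 ± 0.47, edgeR adjusted p = 0.0765). This difference was called by DESeq2 (adjusted p = 0.0429), by limma-voom (adjusted p = 0.0467) and by edgeR on the compared groups alone (adjusted p = 9e-04). In the corrected libraries it was at 6.64, 18.3 and 5.39 CPM. Corrected replicate 2 thus stood at the level of WT and replicates 1 and 3 at that of delEx44; in Fmod the same library had 264 CPM against 192 and 145. The macrophage marker sum was 256 CPM in corrected replicate 2 and 635 and 863 CPM in replicates 1 and 3, and Dmd was at 304 CPM against 205 and 195. Their part in the result was not tested. Without corrected replicate 2, Chad was called lower in corrected than in WT muscle (-1.39, edgeR adjusted p = 0.00515), as was Fmod (-0.62, adjusted p = 0.00365). Chad overlaps Acsf2 on the opposite strand.

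Acan codes for aggrecan, the main proteoglycan of cartilage, at chr7:79053483-79115099, and Hapln1, at chr13:89539796-89611652, for the link protein that holds it on hyaluronan. Outside WT replicate 3 both were near the limit of these libraries. In the 14 other libraries of the first table Acan had 25 to 73 counts and Hapln1 10 to 80. At 4 weeks Acan was at 1.04, 1.61 and 1.00 CPM in delEx44 and at 0.783, 0.758 and 0.956 in corrected libraries, and Hapln1 at 0.383, 0.250 and 0.244 and at 0.351, 0.321 and 0.462.

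At 4 weeks both were called below WT in delEx44: the log2 difference was -2.08 ± 0.76 for Acan (edgeR adjusted p = 0.0406) and -4.40 ± 1.30 for Hapln1 (adjusted p = 0.017). These values rest on WT replicate 3, without which they were -0.09 ± 0.30 for Acan (edgeR adjusted p = 0.82) and -0.67 ± 0.47 for Hapln1 (adjusted p = 0.258). Leaving out any delEx44 4-week library also ended both calls (adjusted p from 0.0665 to 0.118 for Acan and from 0.0527 to 0.0559 for Hapln1).

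After running, Acan was at 1.60 and 0.931 CPM in WT, at 1.05 and 0.692 in delEx44 and at 1.60 and 2.04 in corrected libraries. Hapln1 was at 1.28 and 0.790, 0.817 and 0.415, and 1.14 and 2.23 CPM in the same order. For both genes corrected replicate 3 was the highest run library, while corrected replicate 1 lay below WT replicate 1. In the chondrocyte marker sum, which includes both genes, the corrected run libraries were the highest, at 21.3 and 34.0 CPM against 8.10 to 16.9. No difference in Acan or Hapln1 was called after running. At 18 months Acan had 0 to 13 counts per library and Hapln1 3 to 13, in the 9 libraries together. The 0 of Acan in WT replicate 3 of that age allows up to 3 counts, and differences between these groups were not detectable at this depth.

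Among the 9 genes, levels were compared by Spearman's correlation of log2 CPM across libraries, as a description. Tnmd and Mkx had the closest match over the 15 libraries of the first table (0.95), where both separate the 4-week from the run groups, and 0.37 over the 9 libraries at 18 months. Comp and Chad correlated by 0.82 over the first table and 0.07 at 18 months, and Chad and Fmod by 0.61 and 0.93. Tnmd and Comp gave -0.03 over the first table and 0.82 at 18 months, where both are high in delEx44. The points share groups, and within a group at most 3 libraries contribute.

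The genes whose levels were most like each member in both tables were found among 14139 genes by the smaller of the Spearman correlations over the 15 and the 9 libraries. For Thbs4 they were Mmp19, Arpc1b and Rab4b, each with at least 0.94 over 15 and 0.95 over 9 libraries. For Tnmd they were Alx4 (0.93 and 0.93), Cdh11 (0.91 and 0.93) and Abi3bp (0.93 and 0.90), and for Scx Tmem119 (0.95 and 0.88), Maged1 (0.88 and 0.92) and Smo (0.88 and 0.90). For Mkx they were Adamts3, Matn2 and Slitrk6, for Chad Pla2g5, Rtel1 and Cacng7, and for Fmod Ptgis, Pla2g5 and Cacna2d2, with smaller values of 0.75 to 0.84. Comp had the weakest matches: Ahcyl2, Gng4 and Ptger3 reached 0.70 to 0.74.

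Thbs4 and Comp belong to the thrombospondin family. Of the family's 5 genes, 3 were called higher in delEx44 at 4 weeks (Thbs1, Thbs3 and Thbs4), 2 after running (Thbs3 and Thbs4) and 5 at 18 months, and none lower. Of all genes tested, 25.2%, 14.9% and 28.8% were called higher at these stages. The family's median log2 difference was 0.66, 0.60 and 1.34 at these stages and that of all genes -0.00394, -0.01 and 0.05. Both Thbs4 and Comp are counted among these 5. At 18 months Thbs1, a matrix protein that activates latent TGF-beta, was at 46.6, 56.9 and 50.3 CPM in WT and 277, 311 and 220.4 in delEx44, and at 56.5, 67.1 and 39.9 in corrected libraries. Its difference was 2.39 ± 0.20 against WT (edgeR adjusted p = 4.5e-05), and -2.31 ± 0.20 for corrected against delEx44 (adjusted p = 8.25e-05). In corrected against delEx44 muscle 4 of 5 were called lower at 4 weeks, 4 after running and 5 at 18 months. Of all genes tested, 24.2%, 12.4% and 21.4% were called lower in these comparisons.

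Of 18 other tendon genes (collagens, other matrix genes and the transcription factors Egr1, Egr2 and Six2), 7 were called higher and 1 lower in delEx44 at 4 weeks, 7 and 1 after running, and 13 and 2 at 18 months. Of all genes, 25.2%, 14.9% and 28.8% were called higher and 25%, 14.2% and 23.8% lower. In either direction 50.2%, 29.1% and 52.7% were called, so the count at 4 weeks is no larger than that share. The list was chosen with earlier results of these data known, so its counts are a description. The median log2 differences of the 18 genes were 0.34, 0.70 and 1.01. Col14a1, a collagen that associates with fibrils, was higher at each stage, by 1.00 ± 0.14, 1.61 ± 0.18 and 1.88 ± 0.15 (edgeR adjusted p = 0.000101, 9.11e-05 and 2.29e-05). Six2, a homeobox gene, was lower, with differences of -0.86 ± 0.14, -1.11 ± 0.18 and -1.99 ± 0.22 (adjusted p = 0.000299, 0.000638 and 6.56e-05). Between the 4-week and run groups, 13 of the 18 were called lower and 0 higher in WT (12 and 1 without replicate 3), 12 and 0 for delEx44, with 11 and 2 for corrected muscle. Over all genes, 14.2%, 19.3% and 13.5% were called lower and 13.4%, 16.4% and 12.3% higher in WT, delEx44 and corrected muscle. Col3a1, a collagen of growing and healing tissue, fell by 1.96, 1.37 and 1.78 on the log2 scale in these genotypes (edgeR adjusted p = 1.68e-05, 9.64e-05 and 6.08e-05).

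Of 20 other cartilage genes, 18 were tested at 4 weeks. In delEx44 against WT 9 were called lower and 0 higher, and without WT replicate 3 these counts were 2 and 1, against 50.2% and 48.5% of all genes called in either direction. Their median log2 difference was -0.83 with replicate 3 and -0.18 without it. At 18 months 12 were tested, with 3 called higher and 3 lower in delEx44, 6 of 12 against 52.7% of all genes called. The 3 higher include Col10a1, which passed the filter on low counts only through the delEx44 group. The 3 lower include Col9a1, which was too low in delEx44 to pass the filter there, so this count is partly set by the filter. The lower genes were Sox6, Col11a2 and Col9a1. Sox6, a transcription factor of chondrocytes and muscle fibres, was at 240, 246 and 252 CPM in WT and 119.7, 136 and 135 in delEx44 (-0.92 ± 0.09, edgeR adjusted p = 4.65e-05). Col11a2, a collagen gene, differed by -0.84 ± 0.17 (edgeR adjusted p = 0.00205). Col9a1, another, was at 0.237 to 0.579 CPM in WT and 0.0299 to 0.0665 in delEx44, which is close to 0 in both. Its call is not read as a result. The higher genes were Col10a1, Sox9 and Sox5. Sox9, the transcription factor of chondrocytes, was at 4.63, 4.88 and 6.35 CPM in WT and 19.2, 15.7 and 16.1 in delEx44 (1.69 ± 0.23, edgeR adjusted p = 0.000353), with 12.0, 11.1 and 6.21 in corrected libraries. Col10a1, a collagen of cartilage that turns to bone, was at 1.68, 1.05 and 0.665 CPM in delEx44, at 0.0362 CPM in WT library a with 0 in the other WT libraries, and at 0.193, 0.240 and 0.107 in corrected libraries. It had 20 to 56 counts in delEx44 libraries and 0 to 6 in the others, so its call follows from the filter and is not read as a result. These levels are a description. Col2a1 was at 0.0332 to 0.210 CPM in all 9 libraries, so the main collagen of cartilage was close to 0 at that age.

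Of the 12 genes of TGF-beta and GDF signalling, which acts upstream of Scx in tendon development, 4 were called higher and 2 lower of 10 tested at 4 weeks (3 and 1 without WT replicate 3), 2 and 1 after running, and 7 and 0 of 11 at 18 months. The shares of all genes called were 50.2% (48.5% without that library), 29.1% and 52.7%, and the counts of this list at 4 weeks and after running are near them. Gdf5, a ligand of tendon and joint formation, was at 0.615, 0.697 and 0.663 CPM in 18-month WT, at 1.95, 1.69 and 1.86 in delEx44 and at 0.193, 0.160 and 0.107 in corrected libraries, and the 3 groups did not overlap. The log2 difference was -2.08 ± 0.32 for corrected against WT (edgeR adjusted p = 0.0136) and -3.55 ± 0.29 for corrected against delEx44 (adjusted p = 2.38e-05). These values rest on 14 to 21 counts per WT library, 53 to 65 per delEx44 library and 3 to 5 per corrected library. The corrected level is thus near the limit of these libraries, and the size of both differences is uncertain. Of 8 proteases that cut aggrecan or COMP, 4 were called higher and 1 lower in delEx44 at 4 weeks, 3 and 0 after running and 5 and 0 at 18 months, also near those shares. Mmp3, a matrix metalloprotease, was higher at each stage, by 2.55 ± 0.41, 2.69 ± 0.54 and 3.40 ± 0.49 (edgeR adjusted p = 0.000361, 0.00372 and 0.000893). Adamts12 had an interaction of running with genotype of 0.79 ± 0.15 (adjusted p = 0.0319): run minus 4-week was -1.49 ± 0.11 in WT and -0.69 ± 0.11 in delEx44.

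**Figure D5:**
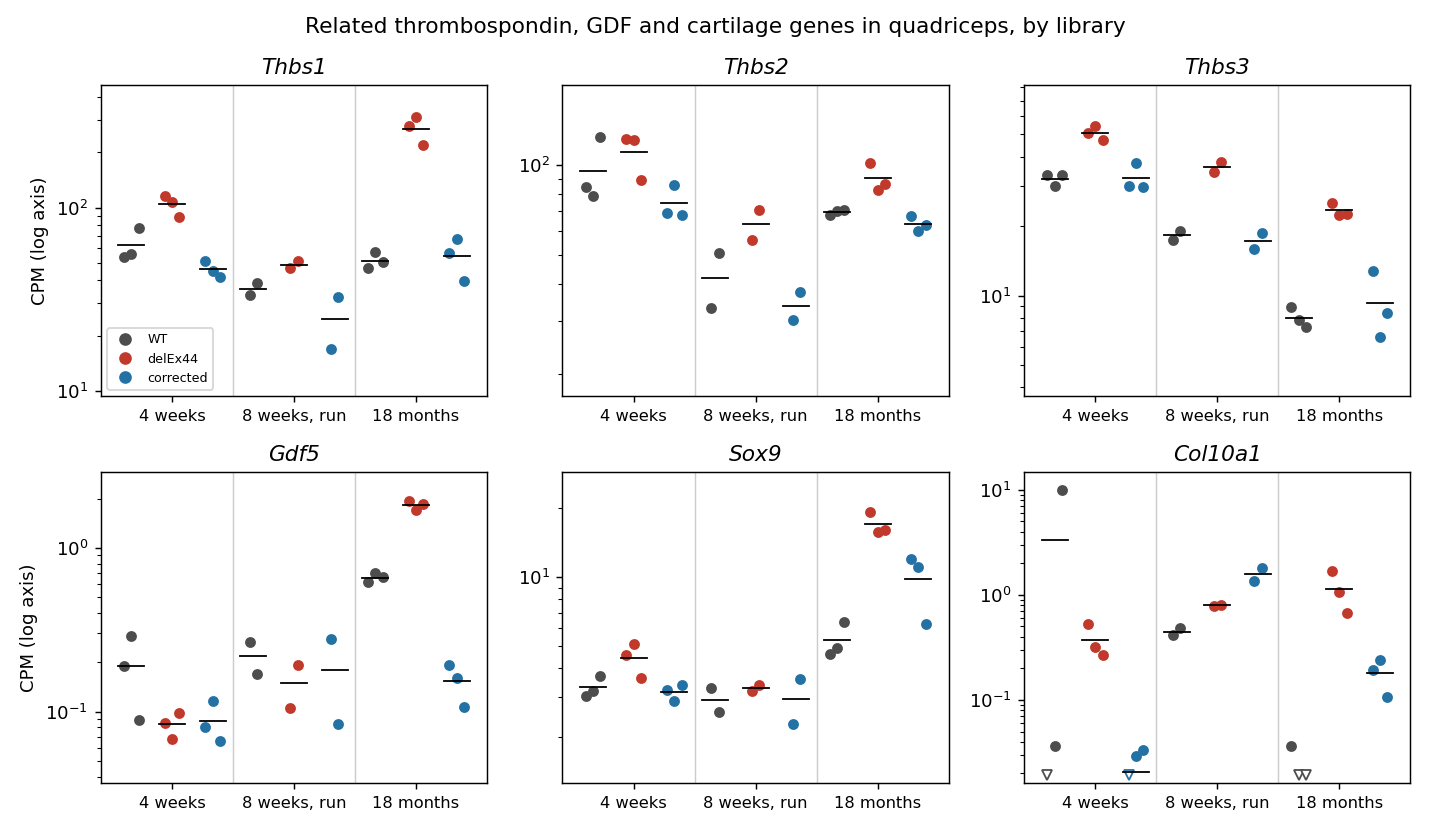
CPM (log axis, own range in each panel) of Thbs1, Thbs2, Thbs3, Gdf5, Sox9 and Col10a1 in 24 libraries, by genotype (colour) and stage; each point is a library, the bar the group mean, and open triangles are counts of 0. At 18 months the delEx44 libraries are above all WT libraries for each of the 6 genes, and the corrected libraries are below all WT libraries for Gdf5. The 6 genes were chosen with results of these data known, so their separation is a description and not a test. Col10a1 passed the filter on low counts at 18 months only through the delEx44 group.

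Of the lecticans, the proteoglycan family of aggrecan, Vcan (versican, a lectican of loose connective tissue) was the gene that differed at each stage, at 53.1, 67.3 and 67.4 CPM in 4-week WT and 96.9, 104 and 99.0 in delEx44. Its difference was 0.68 ± 0.21 at 4 weeks, 0.94 ± 0.26 after running and 1.12 ± 0.16 at 18 months (edgeR adjusted p = 0.018, 0.0203 and 0.00046). Among 11 leucine-rich repeat proteoglycans, Fmod and Chad included, Lum, Aspn and Bgn were called higher in delEx44 at 4 weeks and after running, against 1 gene lower each time (Omd, then Chad). Without WT replicate 3, 3 were higher and 0 lower at 4 weeks. At 18 months 4 of 10 were higher and 0 lower. These counts lie at or below the 50.2%, 29.1% and 52.7% of all genes called, except after running, where 4 of 11 were called. edgeR called Fmod at none of these stages.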

How the data were processed

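Gene counts of quadriceps RNA were used as the authors deposited them, in 2 tables: 15 libraries of 4-week and run mice and 9 of 18-month mice. Per the submitters' processing notes, the tools were HTSeq, edgeR, STAR 2.7.2b, Bowtie2 2.3.4.3, Trim Galore and SAMtools 1.9, and the build was mm10. The sources used here give no annotation, no strand setting and no role for each tool. In each table, 5 records that name no gene (27.4 to 34.2% and 42.2 to 48.3% of a library) were left out. The tables were normalised separately, so no level is compared between them. Counts were tested with edgeR 4.0.16 (R 4.3.3; TMM scaling, filterByExpr with a minimum count of 10 and total of 15, robust quasi-likelihood fits with 1 mean per group) over all groups of a table, 15013 and 14337 genes, and over 18 sedentary libraries of both tables, 14937 genes, for the interactions with age. SEs are the log2 fold change divided by the square root of F. The 16 comparisons were each adjusted by the Benjamini-Hochberg method over all genes.

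CPM are counts per 1e6 counts of the scaled library, and CPM per kb are divided by the union of exons in GENCODE's annotation of GRCm38. The members and the gene lists were chosen with earlier results of these data known. Besides the 9 members, up to 3 genes per direction with the smallest p were named from each list and comparison, and for each member the 3 genes of most similar pattern. Of 157 listed genes 154 matched by symbol, 2 by an older symbol and 1 was absent. One gene was taken out of the list of other tendon genes after its values were seen, and is not reported here. DESeq2 1.42.0, limma-voom (limma 3.58.1), other size factors, no filter, fits on the compared groups alone and leaving out each library were tried. On simulated counts, 73%, 61.9% and 78.1% of genes changed 2-fold were recovered for delEx44 against WT at 4 weeks (14770 genes), after running (14772) and at 18 months (14164). Each simulation changed 200 genes, far fewer than were called in the data. The adjusted threshold differs for that reason, so these shares do not give the recovery in the data. No 2 libraries of the same group agreed within sampling noise.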

Additional observations from a re-analysis of the deposited data

Results flagged for a closer look

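The log2 difference in Comp between delEx44 and WT was -0.55 ± 0.32 at 4 weeks, not called, and 1.34 ± 0.16 at 18 months, and the test of that change passed: the interaction was 1.88 ± 0.41 on the log2 scale (edgeR adjusted p = 0.0108). The 3 delEx44 libraries were above all 3 WT libraries at 18 months, and the groups overlapped at 4 weeks. The 4-week value rests in part on WT replicate 3, whose Comp level was 79.5 CPM against 42.7 and 32.1 CPM in the other WT libraries. The interaction remained past the threshold in all 16 alternatives run, with values of 1.42 to 2.13 and adjusted p from 4.19e-05 to 0.0296, and its lowest value was the one without that library. The 18-month libraries come from a separate table, so age and table cannot be told apart. The cause was not tested.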

How the results depend on the processing

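Of 138 differences tested for the 9 genes, 23 were past the threshold, and 16 of these stayed past it in every alternative run. The 7 others were lost in at least 1: Acan and Hapln1 in delEx44 against WT at 4 weeks, Thbs4 and Chad in delEx44 against WT after running, Thbs4 in corrected against delEx44 after running, Mkx in corrected run against 4-week mice, and Tnmd in delEx44 against WT at 18 months. A further 21 differences passed only in an alternative and 94 in none. No difference that passed changed sign; of the 94, 41 did so somewhere.

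The number of the 9 genes called moved most in these comparisons. For delEx44 against WT at 4 weeks it went from 3 to 2 with DESeq2, to 1 with limma-voom and to 1 with the compared groups alone, and ranged from 1 to 6 when single libraries were left out. For the same contrast after running it went from 2 to 1 without the filter and to 1 with the compared groups alone, and to 0 to 1 without single libraries. For corrected against delEx44 after running it went from 1 to 2 with DESeq2 and to 0 with the compared groups alone, and ranged from 0 to 3 without single libraries. For corrected against WT it went from 0 to 1 with DESeq2 at 4 weeks and at 18 months, where it ranged from 0 to 2 without single libraries. For corrected run against 4-week mice it ranged from 1 to 3 without single libraries. Smaller moves were from 4 to 6 with DESeq2 or the compared groups alone and to 5 with limma-voom for delEx44 against WT at 18 months, and, for run against 4-week mice, from 2 to 3 with DESeq2 in each genotype and with limma-voom or the compared groups alone in delEx44 and corrected mice. For the interaction with age it went from 1 to 3 with DESeq2 in delEx44 against WT, and from 0 to 1 with DESeq2 in corrected against delEx44, with 0 to 1 without single libraries. The cause was not tested.

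Over all genes, DESeq2 called 220 for corrected against WT at 4 weeks where edgeR called 0, 82 against 3 after running and 1638 against 683 at 18 months, and for the running interactions 718 against 132 and 864 against 213. In corrected against delEx44 at 18 months, a replicate block called 4 of the 7 genes tested, as without it; the numbers do not pair these libraries, since deviations of same-numbered libraries correlated by -0.03, 0.03 and -0.05. No paired analysis was possible for the other comparisons because their columns share fewer than 2 numbers that the labels give. List counts without WT replicate 3 were chosen after seeing the data. Acan and Hapln1 are limited by depth throughout.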
